A study of Mus musculus with 4 samples.

Results

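Exon peaks far from promoters were open chromatin regions of mouse bone mesenchymal stem cells (MSCs) that overlapped an exon of a protein-coding gene while lying over 5 kb from every protein-coding start site. They were taken from an ATAC-seq peak table, in which the Tn5 transposase marks open DNA, as autosomal peaks that the peak caller had assigned to both oxygen conditions and that shared at least 1 base with an exon of a protein-coding transcript in GENCODE release M21. Of 128055 peaks in the table, 124498 were autosomal, 116593 of these were assigned to both conditions, 91063 of those lay over 5 kb from a start site, and 7958 of those overlapped an exon. Although internal exons gave the set its name, only 4922 of the peaks overlapped an internal exon and no last exon. A further 2172 overlapped a last exon and no internal one, 863 overlapped both kinds, and 1 overlapped a first exon alone. The classes were taken over all protein-coding isoforms, so the same exon can be internal in 1 isoform and last in another. A last exon peak can therefore lie well inside a gene, and a peak over both kinds may hold no 3′ untranslated sequence. The same filters left 35426 peaks inside introns with no exon base, which served for comparison. The assignment to both conditions was itself made from these libraries, and it removed 404 otherwise eligible exon peaks that were assigned to hypoxia alone, 58 of which were called lower in normoxia and 0 higher.

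The study exposed MSCs to high oxygen for a long period and asked how their chromatin responded. Cells came from hind limb bones of C57BL/6N mice aged 3 to 5 months, were grown in control α-MEM medium, and were sorted as CD45-/Ter-119-/Sca-1+/CD140a+. One portion of the sorted cells was kept in hypoxia (2% O2) and the other was moved to normoxia (21% O2), so both groups share an earlier culture in low oxygen. Each condition has 2 libraries, with recovered totals of 26680936 to 29965523 reads. They are described as biologically independent experiments. The labels call the cells bone marrow MSCs, whereas the methods describe digested bone fragments. Promoters of the markers used for sorting were open, with a mean value of 249 at Pdgfra (CD140a) and 59.9 at Ly6a (Sca-1) against a median of 62.6 over all promoter peaks. Of 9 other mesenchymal markers 8 had a promoter peak, with values from 25.1 to 649, while Lepr had none. Among blood markers, Spi1 had one at 11.5, and Ptprc (CD45) had none.

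Exons are mostly read as coding sequence, but an exon can also lie within an enhancer, a stretch of DNA that binds transcription factors and raises transcription of a gene that may be far away. The best studied case is Dync1i1, a subunit gene of the dynein motor, in which some exons act as limb enhancers of the neighbouring homeobox genes Dlx5 and Dlx6. Last exons differ from internal exons in that they carry most of the 3′ untranslated sequence and the transcription end. In a bulk assay, fewer cells with an open site and less opening per cell cannot be told apart.

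The sequences of 6 coding exons under such peaks are given as examples. They are exons of Anxa1 and Fn1 under peaks that were lower in normoxia, of Adgb and Vcl under peaks that were higher, and of Dync1i1 under peaks that were not called. Such an exon need not be the most open part of its peak. Distances to the peak centre ran from 139 bp at exon 14 of Dync1i1 to 2148 bp at Vcl, whose peak spans 15000 bp. Each is printed from the GRCm38 reference 5′ to 3′ in the direction of the gene, with the exon in capitals and 40 bases of intron in lower case on each side. The coordinates cover exon and flanks.
Anxa1 exon 5 of 13, chr19:20382822-20383015, minus strand: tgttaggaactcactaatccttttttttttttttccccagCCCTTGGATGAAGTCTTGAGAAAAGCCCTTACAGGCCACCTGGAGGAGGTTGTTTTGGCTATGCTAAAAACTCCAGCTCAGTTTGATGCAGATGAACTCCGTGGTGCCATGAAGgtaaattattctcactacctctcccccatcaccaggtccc
Fn1 exon 22 of 46, chr1:71619344-71619592, minus strand: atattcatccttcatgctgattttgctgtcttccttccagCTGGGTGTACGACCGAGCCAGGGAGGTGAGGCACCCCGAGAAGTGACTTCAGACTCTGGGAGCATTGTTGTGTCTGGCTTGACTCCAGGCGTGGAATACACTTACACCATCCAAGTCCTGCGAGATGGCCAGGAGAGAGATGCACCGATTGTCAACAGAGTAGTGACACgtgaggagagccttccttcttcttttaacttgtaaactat
Adgb exon 25 of 36, chr10:10390096-10390329, minus strand: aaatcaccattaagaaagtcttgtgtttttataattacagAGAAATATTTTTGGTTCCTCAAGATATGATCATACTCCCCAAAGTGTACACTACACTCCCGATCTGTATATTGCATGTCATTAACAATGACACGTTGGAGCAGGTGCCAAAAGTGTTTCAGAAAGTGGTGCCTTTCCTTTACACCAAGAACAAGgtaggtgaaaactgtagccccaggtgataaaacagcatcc
Vcl exon 3 of 21, chr14:20982534-20982764, plus strand: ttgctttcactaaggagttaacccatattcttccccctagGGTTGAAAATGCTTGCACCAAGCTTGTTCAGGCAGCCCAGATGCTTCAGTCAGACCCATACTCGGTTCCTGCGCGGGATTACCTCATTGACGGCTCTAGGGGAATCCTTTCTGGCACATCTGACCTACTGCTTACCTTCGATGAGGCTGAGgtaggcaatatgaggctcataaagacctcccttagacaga
Dync1i1 exon 14 of 16, chr6:6006230-6006450, plus strand: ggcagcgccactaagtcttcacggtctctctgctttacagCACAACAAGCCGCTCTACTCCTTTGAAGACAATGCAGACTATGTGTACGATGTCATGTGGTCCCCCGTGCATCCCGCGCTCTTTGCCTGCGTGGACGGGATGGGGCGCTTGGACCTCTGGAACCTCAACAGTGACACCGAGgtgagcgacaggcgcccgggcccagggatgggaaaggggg
Dync1i1 exon 11 of 16, chr6:5966663-5966856, plus strand: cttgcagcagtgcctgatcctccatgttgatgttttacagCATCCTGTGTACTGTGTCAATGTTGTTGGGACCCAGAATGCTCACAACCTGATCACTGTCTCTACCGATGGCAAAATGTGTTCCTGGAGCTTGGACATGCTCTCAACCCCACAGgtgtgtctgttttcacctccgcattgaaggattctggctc

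The exons were 114 to 169 bases long and each was bounded by the usual ag and gt dinucleotides. Exon 14 of Dync1i1 had a GC content of 57.4% between flanks of 65.0%, whereas exon 25 of Adgb had 40.3% between flanks of 36.2%. None of the 6 stretches held any of the 5 motifs searched over all peaks (the letters AGGNGGCGC for the core of CTCF, TGTGGTTT for RUNX, GGAATGT for TEAD, ACGTGC for the hypoxia response element, and TGANTCA for AP-1, on both strands). No match says only that these letters are not in these windows.

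Exon peaks were wider and stronger than intron peaks. Their median width was 1400 bp against 1000 bp, and the median of the mean deposited value was 18.6 against 13.3 in introns and 14.3 over all peaks. The deposited value is the number of reads in the peak relative to the depth of the library, with no correction for width, so wide peaks have high values. Peaks on both internal and last exons were the widest and strongest class, at 2400 bp and 33.5, and a wide peak also reaches both kinds more readily. Internal exon peaks had a median of 18.2 and last exon peaks 15.9. Exons took up little of most internal exon peaks, since in 2556 of 4922 they covered under 10% of the width, whereas in 833 of 2172 last exon peaks they covered at least 90%. Most of an internal exon peak is therefore intron sequence by length.

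The sequence of exon peaks differed modestly from that of intron peaks. Median GC content was 47.5% against 45%, and the observed over expected CpG ratio was 0.228 against 0.193. In the central 300 bases, the AP-1 motif occurred in 18.4% of exon peaks, 23.5% of intron peaks and 20.6% of all peaks. The CTCF core was found in 1.33%, 0.61% and 1.20%, the RUNX motif in 3.95%, 4.86% and 4.21%, and the TEAD motif in 6.46%, 8.05% and 7.18%. The hypoxia response element was present in 4.41%, 3.43% and 3.88%. Exon peaks thus held AP-1, RUNX and TEAD matches less often and CTCF and hypoxia response element matches more often than intron peaks, as a description without a test. A match is a string of letters and not a bound site.

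Part of the set lay near starts that the rule did not exclude. A start of a transcript not classed as protein-coding was annotated within 1 kb of 18.6% of exon peaks and 6.01% of intron peaks. This takes in every other transcript type, so it is not limited to noncoding RNA. The share was 21.4% for internal and 7.83% for last exon peaks. In 1181 peaks the transcript belonged to the same gene, as another isoform, and in 298 to another gene. Peaks with no such start had a median value of 17.6, those near a start of the same gene 22.5, and those near a start of another gene 34.0.

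The exon peaks were spread over 5126 genes, of which 3295 had 1, 1136 had 2 and 695 had 3 or more. Col12a1, a fibril-associated collagen, had the most with 20 peaks. Syne1, which links the nuclear envelope to the cytoskeleton, followed with 16, and Fbn1, the main fibrillin of microfibrils, and Fndc3b came next with 12 each. Overlapping genes made 174 peaks ambiguous, since they touched exons of more than 1 gene.

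Accessibility was then compared between normoxia and hypoxia. The exon peaks held 3.44% and 3.67% of all reads of the hypoxia libraries, against 2.29% and 2.55% for normoxia. Each normoxia library was thus below each hypoxia library, as was also the case for all nuclear peaks, at 31.0% and 35.2% against 49.2% and 53.2%. As a share of nuclear peak reads, exon peaks stood at 6.99% and 6.89% in hypoxia and at 7.37% and 7.24% in normoxia, so on that scale normoxia was slightly higher. The median exon peak held 57 and 63 reads in hypoxia, against 42 and 51 in normoxia. As the libraries differed in this way, values were scaled by relative log expression (RLE) size factors, which place the median of all peaks near no change, and every fold change below is relative to that centre. Without this scaling the median log2 fold change was -0.44 over all peaks and -0.38 over exon peaks.

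After scaling, limma called 226 exon peaks lower in normoxia (2.84%) and 153 higher (1.92%) at a false discovery rate (FDR) under 0.01, adjusted by Benjamini-Hochberg over all peaks of the table. Over all 128055 peaks, 4.57% were called lower and 1.77% higher. Internal exon peaks had 123 lower calls (2.50%) and 93 higher calls (1.89%), last exon peaks 70 (3.22%) and 36 (1.66%), and peaks over both kinds 33 (3.82%) and 24 (2.78%). The share of higher calls was thus close to the background for internal and last exon peaks and above it for peaks over both kinds, while the share of lower calls lay under it in all 3 classes. Intron peaks had 1.79% lower and 2.07% higher, but once weighted to the mean values of the exon peaks they had 3.25% lower and 2.14% higher. Leaving out a hypoxia library gave median log2 fold changes of exon peaks of 0.069 without replicate 1 and 0.031 without replicate 2. Such a fit takes its spread from the normoxia libraries alone. Its calls thus cannot decide how far the main calls rest on the hypoxia libraries. The main calls do rest on the trended spread of limma, since eBayes without trend called 0 exon peaks (1385 at an unadjusted p under 0.05), whereas edgeR on the recovered reads called 289 lower and 225 higher.

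The median log2 fold change of exon peaks was 0.064, beside -0.0040 over all peaks, 0.099 over all intron peaks and 0.050 over intron peaks of equal mean value. Without hypoxia replicate 2 it was 0.031, and with a correction for GC content -0.015, where the median of all peaks was -0.098. For internal exon peaks the median was 0.061 and that of their matched introns 0.059, and for last exon peaks it was 0.079 against 0.064. The differences from matched introns were 0.014 for all exon peaks, 0.0026 for internal and 0.015 for last exon peaks, each smaller than the pooled standard deviation (SD) of the same difference between libraries (0.023, 0.023 and 0.034). Last and internal exon peaks differed by 0.018, against an SD of 0.021. When last exon peaks were weighted to the values of internal ones, the difference was 0.0073. The fold change differences were below these SDs, but the groups lay further apart in last minus internal median values. Other choices took some of the fold change differences past their SD. Without hypoxia replicate 2 the difference of all exon peaks from matched introns turned to -0.014, and without hypoxia replicate 1 it was 0.044. With GC correction it was 0.038. Among peaks of which exons covered at least 50%, internal exon peaks (135 peaks) lay 0.11 below matched introns and last exon peaks 0.084 above internal ones.

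Strength of the peak, in contrast, went with both the fold change and the calls. Among exon peaks with a mean value of 5 to 10 the median log2 fold change was 0.22 and 0 of 1589 were called lower. Between 20 and 50 the median was 0.027 and 1.73% were lower, and above 100 it was -0.24 and 123 of 596 (20.6%) were lower. Medians and lower calls of intron peaks moved in parallel, with medians of 0.25, 0.022 and -0.26 in the same ranges and 19.5% lower above 100. Higher calls above 100 differed, at 13 of 596 exon peaks (2.18%) and 5 of 1154 intron peaks (0.43%). In that strongest range last exon peaks had 23.8% lower calls and internal exon peaks 19.9%. Higher calls were most frequent between 20 and 50, at 3.03% of exon peaks. The slope depends on the scaling. Under cyclic loess the medians in the 3 ranges named above were 0.016, 0.039 and 0.099, so that the strongest exon peaks no longer had the lowest median. In all, 57 exon peaks were then lower and 199 higher, and above 100 the shares were 2.18% and 12.9%. Intron peaks above 100 were then lower in 2.51% and higher in 5.81%.

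**Figure D1:**
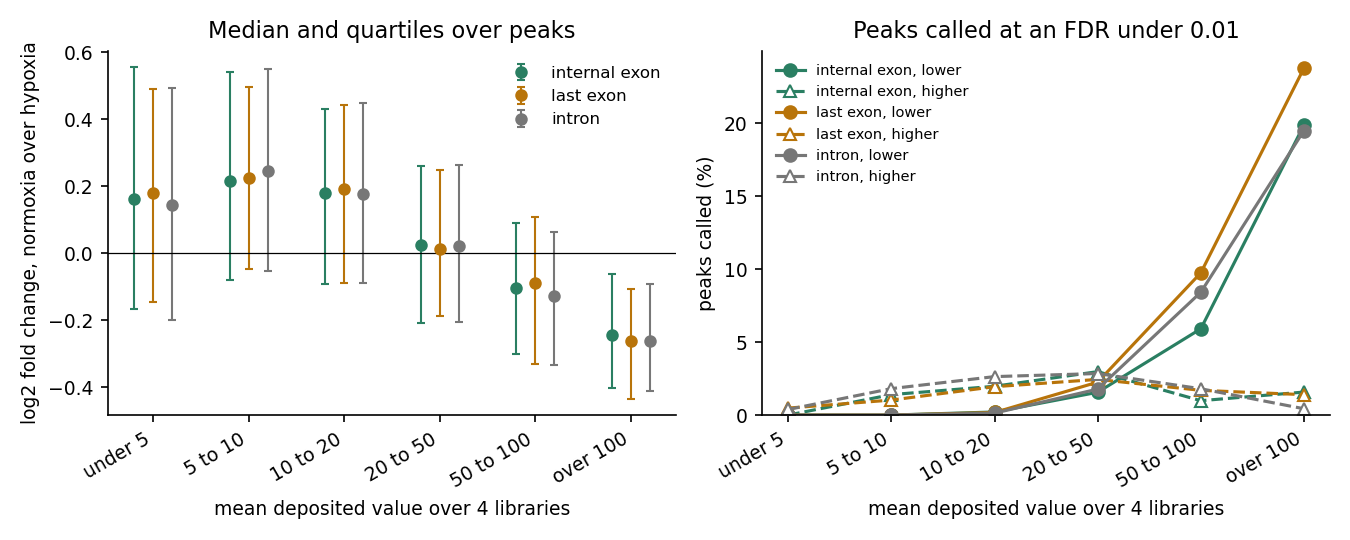
Fold change and calls by peak strength. Left, median log2 fold change (normoxia over hypoxia, points) with quartiles over peaks (bars) against the mean deposited value in 6 ranges, for internal exon, last exon and intron peaks. Right, percentage of peaks called lower (filled circles) and higher (open triangles). The medians of the 3 classes follow each other closely, from 0.21 to 0.25 at values of 5 to 10 down to -0.24 to -0.26 above 100, where 19.5% to 23.8% were called lower. Higher calls above 100 were 1.58% of internal exon, 1.40% of last exon and 0.43% of intron peaks.

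GC content went with the direction of the calls. Of 712 exon peaks with a GC content under 40%, 4.63% were called higher and 0.98% lower, whereas of 1981 peaks between 50% and 55%, 1.41% were higher and 3.74% lower. Intron peaks under 40% GC had 4.55% higher and 0.54% lower. After correction of each library for GC content, 411 exon peaks were called lower and 125 higher. The part that GC content plays in these calls was not tested.

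**Figure D2:**
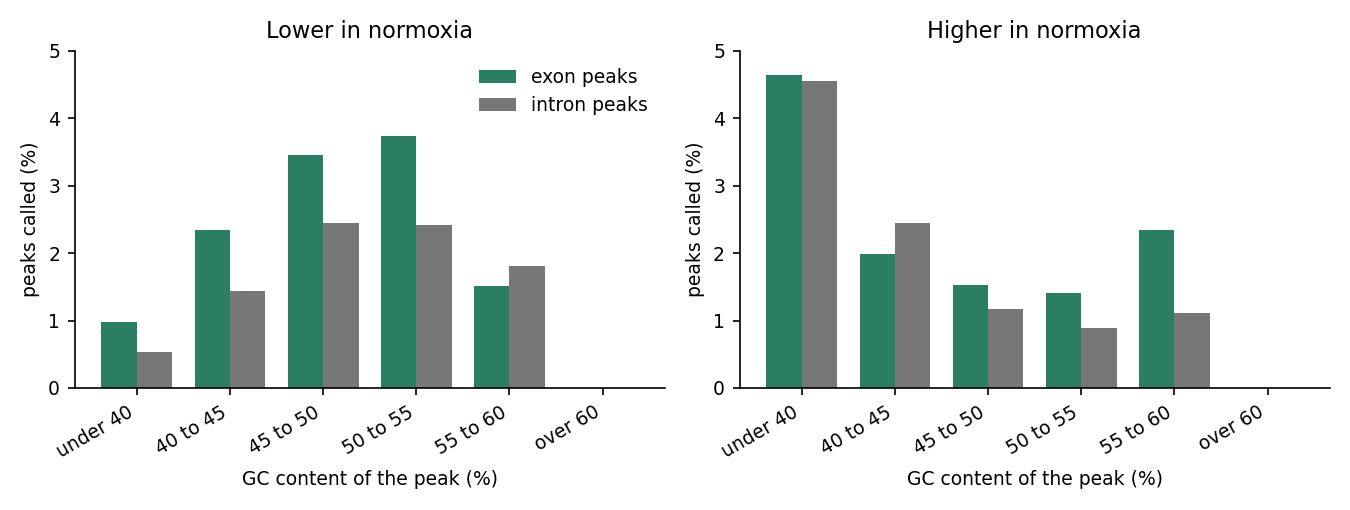
Percentage of exon and intron peaks called lower (left) and higher (right) in normoxia by GC content of the peak in 6 ranges. Higher calls were most frequent under 40% GC in both classes, at 4.63% of exon and 4.55% of intron peaks, and no peak above 60% GC was called.

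Calls differed less between kinds of exon sequence than between ranges of peak strength. Peaks on coding sequence alone numbered 5028, with a median value of 17.7 and 2.39% lower calls. The 1266 peaks on 3′ untranslated sequence alone had a median value of 14.3 and 2.05% lower calls. The 1332 peaks that spanned coding and 3′ untranslated sequence had the highest value of these 3 kinds, 28.1, and 5.03% lower calls. Last exon peaks of which exons covered 25% to 50% had 6.19% lower calls at a median value of 24.2, and those covered by at least 90% had 1.20% at a value of 10.1. With distance from the start the median fold change of exon peaks ranged from 0.041 beyond 100 kb to 0.077 between 10 and 20 kb. At the limit of the rule, the 447 exon peaks at 5 to 6 kb had a median of 0.11 and the 462 at 4 to 5 kb, just outside it, 0.075.

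Exon peaks that held an AP-1 match were called lower in 3.41% and higher in 1.02%, and those without one in 2.71% and 2.13%. In introns the same split gave 1.98% and 1.18% with a match and 1.73% and 2.35% without. Exon peaks with a TEAD match were higher in 3.31% (17 of 514) and those without in 1.83%, beside 5.26% and 1.80% in introns. The hypoxia response element went with 2.85% lower calls where present and 2.84% where absent.

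Called peaks named by class and direction below were those of lowest p whose groups did not overlap, as deposited and scaled. This separation was a condition of the choice. Internal exon peaks that were lower in normoxia included those of Emp1, Anxa1 and Fn1. The peak over exon 2 of Emp1, a membrane protein with 4 spans, lay at chr6:135374601-135378200 and had values of 183 and 206 in hypoxia against 67.8 and 65.1 in normoxia. Normoxia was far lower in each library, and the fitted log2 fold change was -1.06 ± 0.12 (SE, FDR 1.31e-06, limma). Anxa1 encodes annexin A1, a phospholipid-binding protein that restrains inflammation, and its peak over exons 2 to 6 (chr19:20381101-20385300) had values of 173 and 203 in hypoxia against 68.2 and 69.7 in normoxia. Its log2 fold change was -0.96 ± 0.12 (SE, FDR 6.05e-06, limma). In Fn1, which encodes the matrix protein fibronectin, a 23000-bp peak over exons 14 to 29 of 46 (chr1:71607701-71630700) had values of 634 and 762 in hypoxia, compared with 311 and 331 in normoxia. A second Fn1 peak over exons 36 to 41 (chr1:71594201-71600800) stood at 167 and 198 against 72.0 and 67.7. Log2 fold changes of the Fn1 peaks were -0.64 ± 0.09 and -0.89 ± 0.13 (SE). The Anxa1 peak and both of these Fn1 peaks hold a start of a transcript of the same gene that is not classed as protein-coding. Under cyclic loess the first of the Fn1 peaks was no longer called.

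Last exon peaks that were lower were led by Frmd8, a FERM-domain protein of the iRhom pathway. The peak at chr19:5815901-5852900 was the strongest exon peak of all, with values of 8487 and 9249 in hypoxia, compared with 2621 and 3849 in normoxia, where both libraries were far lower. Its log2 fold change was -1.001 ± 0.08 (SE, FDR 4.27e-07, limma), and it was no longer called with equal totals over peaks. Exons covered only 8.22% of its 37000 bp, and 20771 bp of it lay over Neat1, the long noncoding RNA that builds paraspeckles, and 5766 bp over the antisense gene Frmd8os. The label Frmd8 thus describes a small part of this region. Igfbp4, a binding protein of insulin-like growth factors, had values of 217 and 201 in hypoxia against 73.1 and 86.1 in normoxia over its last exon (chr11:99052501-99058500). Kcnn4, a calcium-activated potassium channel, stood at 329 and 346 against 126 and 161, and the small heat shock protein gene Hspb8 at 258 and 276 against 102 and 129. Log2 fold changes of these 3 peaks were -0.91 ± 0.12, -0.77 ± 0.11 and -0.73 ± 0.11 (SE), with FDRs of 1.09e-05, 2.05e-05 and 6.55e-05 (limma). Hspb8 was no longer called under cyclic loess.

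**Figure D3:**
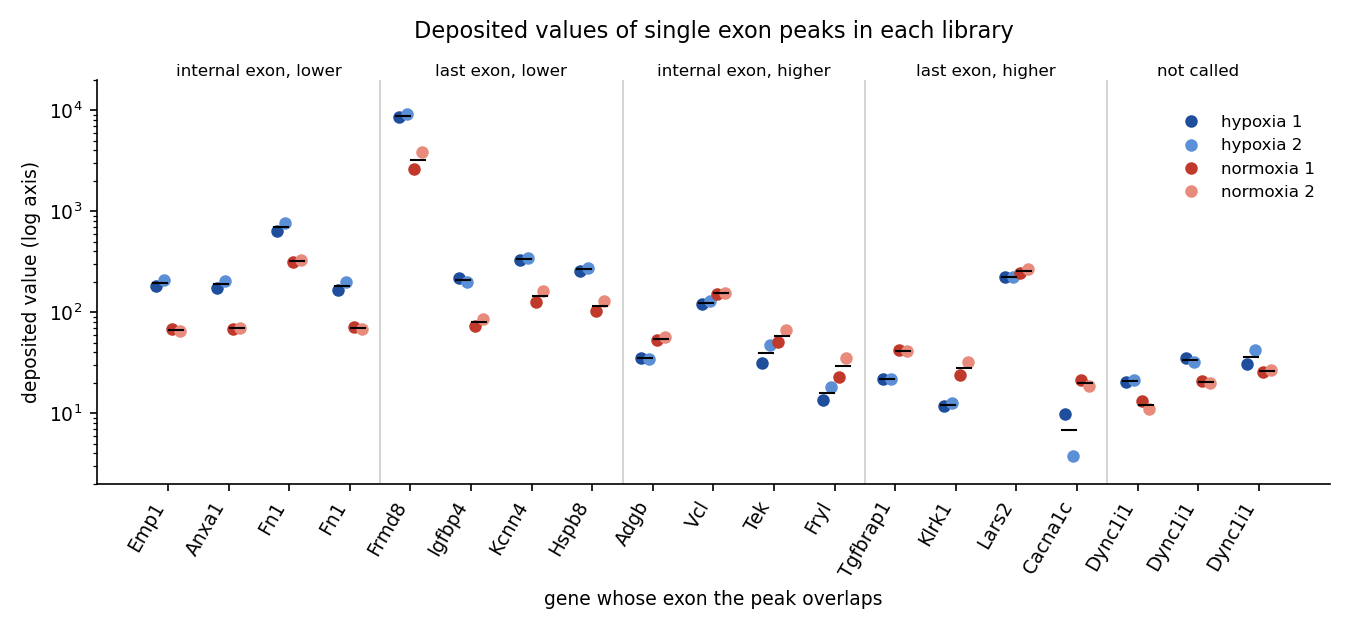
Deposited values (log axis) of 19 exon peaks in the 4 libraries. Blue points are hypoxia, red points normoxia, and black bars the means of the 2 libraries. Apart from Dync1i1, peaks were chosen to show no overlap between groups. Peaks called lower show wide gaps, as at Emp1 (183 and 206 against 67.8 and 65.1), whereas several peaks called higher, such as Vcl and Lars2, differ little before scaling and the 3 Dync1i1 peaks were not called.

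Internal exon peaks that were higher in normoxia and met the same conditions lay in Adgb, Vcl, Tek and Fryl. The strongest internal exon peak, at Cemip, was also called higher, but its groups overlapped as deposited. Adgb, which encodes the globin-like protein androglobin, had values of 35.4 and 34.3 in hypoxia against 52.5 and 56.7 in normoxia over exons 24 and 25 (chr10:10389601-10391400). Normoxia was above hypoxia in both libraries before any scaling, and the log2 fold change was 1.10 ± 0.16 (SE, FDR 4.33e-05, limma). The focal adhesion protein gene Vcl (vinculin) had values of 120 and 128 against 153 and 155 over exons 3 to 6, and its log2 fold change was 0.78 ± 0.12 (SE, FDR 4.90e-05). Tek, the angiopoietin receptor of endothelial cells, had values of 31.1 and 47.6 against 50.2 and 66.4 over exon 7, so that its groups were separated only narrowly, and Fryl stood at 13.4 and 18.4 against 22.9 and 35.4 over exon 52. Their log2 fold changes were 1.04 ± 0.17 and 1.27 ± 0.22 (SE). The calls at Vcl and Tek were lost on values as deposited. GC content was 38.7% at Adgb, 39.0% at Vcl and 37.2% at Tek.

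Among last exon peaks, Tgfbrap1, an associate of TGF-β receptors, rose from 21.6 and 21.8 to 42.0 and 41.4 (chr1:43046601-43048100), a log2 fold change of 1.37 ± 0.19 (SE, FDR 1.20e-05, limma). Klrk1, which encodes the NKG2D receptor of natural killer cells, had values of 11.7 and 12.6 in hypoxia against 23.6 and 32.4 in normoxia. The peak at Cacna1c, a calcium channel subunit, lay wholly in the last exon and had 28 and 11 reads in hypoxia against 57 and 56 in normoxia, so its fold change of 1.97 ± 0.31 (log2, SE) rests on few reads. Lars2, the mitochondrial leucyl-tRNA synthetase, had 222 in each hypoxia library and 246 and 266 in normoxia, and its call (log2 fold change 0.68 ± 0.10, SE) was lost on values as deposited. Normoxia exceeded hypoxia without overlap in each of these peaks, as their choice required.

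The strongest exon peaks were very wide. Of the 10 strongest of any class, a count chosen after the values were seen, limma called 3 lower, 1 higher and 6 neither. The lower ones were the Frmd8 peak and 2 peaks over both kinds of exon, one at Zswim4 (1613 and 1567 in hypoxia against 695 and 804 in normoxia) and one at Fancc and 2010111I01Rik (1887 and 1883 against 1015 and 1130.3), with log2 fold changes of -0.61 ± 0.07 and -0.34 ± 0.07 (SE). The higher one lay at Cemip. The peak over exons 2 to 5 of Cemip, which is needed for breakdown of hyaluronan, spanned 85500 bp, of which exons covered 0.74%. Its deposited values were 1174 and 1211 in hypoxia against 1178 and 1253 in normoxia, and these overlapped. After scaling they became 1035 and 986 against 1455 and 1414. The log2 fold change was 0.51 ± 0.07 (SE, FDR 1.82e-05, limma), a call that depends on the scaling and was lost on values as deposited. Plpp3, a lipid phosphate phosphatase, stood at 1138 and 1218 against 731 and 849, and Col5a1, a regulator of collagen fibril width, at 931 and 899 against 592 and 654. Smad6, an inhibitor of bone morphogenetic protein signals, had 1200.3 and 1234 against 714 and 886 over its last exon, and the giant scaffold protein gene Ahnak 777 and 920.0 against 472 and 529. All 4 were lower in both normoxia libraries as deposited, but after scaling their log2 fold changes were -0.10 ± 0.07, -0.077 ± 0.08, -0.13 ± 0.08 and -0.28 ± 0.08 (SE) with FDRs of 0.386, 0.562, 0.248 and 0.0191, so none was called. With cyclic loess or equal totals the sign of all 4 turned positive.

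Dync1i1 had 3 exon peaks, of which limma and edgeR called 0 and 0 had an unadjusted p under 0.05. The peak over exon 14 (chr6:6005501-6006900) had values of 35.03 and 32 in hypoxia against 21 and 20.02 in normoxia. Over exon 11 (chr6:5966601-5967600) they were 30.8 and 41.8 against 25.5 and 27.0, and over exon 8 (chr6:5915901-5917300) 20.5 and 21.4 against 13.1 and 11. Normoxia was lower in each peak as deposited, and after scaling the log2 fold changes were -0.22 ± 0.20, 0.027 ± 0.19 and -0.30 ± 0.24 (SE), with FDRs of 0.496, 0.946 and 0.425. The peaks held between 33 and 123 reads in a library. That over exon 14 also holds a start of a Dync1i1 transcript not classed as protein-coding.

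Several genes carried more than 1 called exon peak. There were 18 such genes, 12 with lower calls only, 3 with higher calls only (Cemip, Grip2 and Mdm2) and 3 with both (Syne1, Ppfibp2 and Fyco1), and those named here beyond the rule were chosen after their values were seen. Peaks of 1 gene lie side by side and are not independent. All 4 exon peaks of Anxa1 were lower, with log2 fold changes from -1.18 to -0.78. The strongest of them, at the end of the gene (chr19:20370401-20375600), stood at 434 and 506 in hypoxia against 145 and 152 in normoxia (FDR 1.58e-09, limma). In Fn1 5 of 7 peaks were lower, from -0.89 to -0.62, and the other 2 had values of -0.41 and -0.21. The called peak at chr1:71574801-71587800 (-0.62) also touches an exon of Atic. Adamts16, a secreted metalloproteinase, had 3 of 5 lower, between -0.73 and -0.61. Cemip had 3 of 3 higher, from 0.41 to 0.54, and the values as deposited overlapped between the groups in all 3. Mdm2, a ubiquitin ligase that acts on the p53 protein, had 2 of 2 higher at 0.68 and 0.70, with deposited values of 264 and 280 against 294 and 333 in the first, which also touches an exon of Cpm. Grip2 had 2 of 2 higher, at 0.68 and 1.02.

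The genes with the most exon peaks did not move as units. All 20 peaks of Col12a1 and all 12 of Fbn1 and of Fndc3b missed the threshold with limma and with edgeR (1, 4 and 3 at an unadjusted p under 0.05), with ranges of -0.60 to 0.73, -0.32 to 1.34 and -0.043 to 0.61 and medians of -0.16, -0.15 and 0.19. Some of these extremes were weak peaks. The value of 1.34 in Fbn1 came from 0.35 and 0.34 in hypoxia against 1.87 and 2.00 in normoxia. The lowest and highest in Col12a1 had mean values of 6.65 and 8.06. Syne1 had 3 peaks lower and 1 higher among 16. One of the lower peaks (chr10:5309101-5313200) had values of 260.1 and 297 in hypoxia against 118 and 130.5 in normoxia, and the higher peak (chr10:5215601-5217000) had 21.2 and 16.7 against 25.1 and 30.4.

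**Figure D4:**
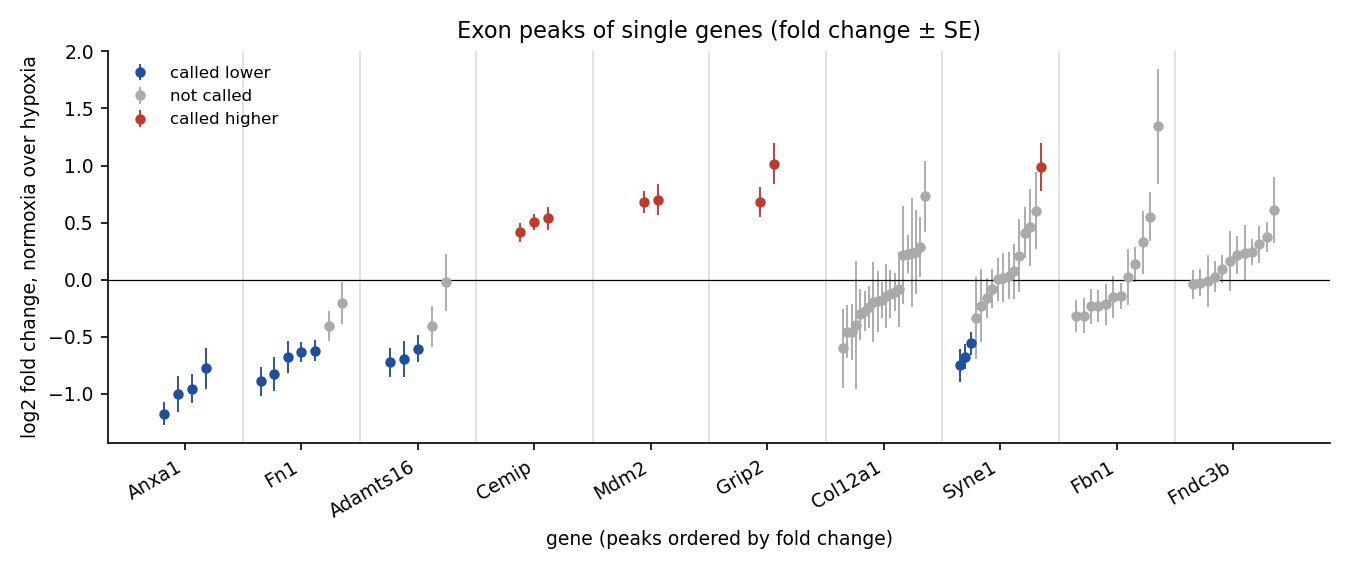
Log2 fold change (normoxia over hypoxia) with SE of each exon peak in 10 genes, ordered by fold change within the gene. Anxa1 (4 of 4), Fn1 (5 of 7) and Adamts16 (3 of 5) hold peaks called lower, Cemip (3 of 3), Mdm2 (2 of 2) and Grip2 (2 of 2) peaks called higher, and the 4 genes with the most exon peaks hold mainly peaks that were not called.

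Gene groups were described by the exon peaks in their genes. Over all exon peaks, of which the lists are parts, 2.84% were called lower and 1.92% higher. In the osteoblast and bone matrix list, 22 of 39 genes had 70 exon peaks, of which 8 were lower (11.4%) and 0 higher (median log2 fold change 0.0023), beside 4.57% lower and 1.77% higher over all peaks. The counts of edgeR were also 8 and 0, and 20 had an unadjusted p under 0.05. The 8 lay in Fn1, in the procollagen proteinase Bmp1, in the Wnt co-receptor Lrp6 and in the matrix metalloproteinase Mmp14. Bmp1 had values of 142 and 131 in hypoxia against 63.7 and 60.7 in normoxia, Mmp14 had 242 and 236 against 111 and 142, and Lrp6 had 27.2 and 26.5 against 8.25 and 9.01. Fn1 supplied 5 of the 8 calls, including the peak that also touches an exon of Atic, so the count is mainly that of 1 gene. Of 44 collagen genes 32 had 108 exon peaks, with 6 lower (5.56%), in Col27a1, Col28a1, Col2a1, Col3a1 and Col6a1, and 2 higher (1.85%), in Col13a1 and Col17a1. Both shares were near those over all peaks, while the lower share was above that over all exon peaks. At Col28a1 the values were 63.3 and 69.7 against 22.9 and 31.7 (log2 fold change -0.80 ± 0.17, SE), and at Col27a1 162 and 174 against 78.0 and 87.4 (-0.54 ± 0.12, SE).

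In the hypoxia response list, 11 of 30 genes had 21 exon peaks, of which 2 were lower (9.52%, beside 4.57% over all peaks) and 0 higher (beside 1.77%). Of these 21, 6 had an unadjusted p under 0.05, and edgeR called 2 lower and 0 higher with RLE factors and 1 lower and 1 higher with TMM factors. The lower peaks lay in Pfkfb4, a regulator of glycolysis, at 58.0 and 70.0 in hypoxia against 24.7 and 31.7 in normoxia, and in Hk2, a hexokinase, at 565 and 657 against 317 and 367. Their log2 fold changes were -0.69 ± 0.17 and -0.36 ± 0.09 (SE, FDR 0.00519 and 0.00603, limma), but under cyclic loess neither was called and that of Hk2 was 0.14. The actin cytoskeleton and adhesion list had 94 exon peaks with 1 lower (1.06%), in the formin gene Diaph1, and 5 higher (5.32%), in Actn1, Lpp, Macf1, Tpm1 and Vcl, which is under the share of all peaks for lower calls and above it for higher calls. Diaph1 stood at 92.4 and 83.0 against 36.0 and 39.4. Tpm1, a tropomyosin, had 298 and 308 in hypoxia against 293 and 314 in normoxia, values that overlapped, and its higher call (log2 fold change 0.48 ± 0.10, SE) was lost on values as deposited.

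Other lists held few calls. The adipogenic list had 11 exon peaks, of which limma and edgeR called 0 and 0 had an unadjusted p under 0.05. Its lowest FDR was 0.273 at Acaca, which encodes acetyl-CoA carboxylase, with values of 11.3 and 16.7 in hypoxia against 15 and 12.3 in normoxia. The chromatin regulator list had 31, of which limma called 0, edgeR called 1 higher, and 6 had an unadjusted p under 0.05. Its lowest FDRs were 0.0137 at Rai1 and 0.0231 at the histone demethylase gene Kdm4b. Rai1 had values of 47.8 and 36 in hypoxia against 42.4 and 51.1 in normoxia, and it was called higher with equal totals, cyclic loess or GC correction. Zinc finger genes had 96 exon peaks, 50 of them on last exons, with 1 lower (1.04%, beside 4.57% over all peaks) and 0 higher (beside 1.77%), whereas edgeR called 3 lower and 2 higher with RLE factors and 1 lower and 2 higher with TMM factors, and 28 had an unadjusted p under 0.05. The lower peak lay in Zfp474, at 226 and 244 in hypoxia against 114 and 131 in normoxia.

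Finally, the exon peaks were set beside the promoters of their genes. Counts are of exon peaks, so a promoter counts once for each exon peak of its gene. Over all peaks of the table, 4.57% were called lower and 1.77% higher. Of 205 exon peaks that were lower and whose gene had a promoter peak, the promoter was lower in 77 (37.6%) and higher in 0. Of 126 that were higher, it was lower in 25 (19.8%) and higher in 2, and of 6733 that were not called it was lower in 1523 (22.6%) and higher in 10. The lower, higher and uncalled sets covered 188, 124 and 4255 genes. Lower exon peaks had a median value of 111, against 22.9 in higher ones and 17.8 in those not called. The median log2 fold change of the promoters was -0.37, -0.24 and -0.30 in these sets, each below 0.

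The balance of the calls among exon peaks changed with the scaling of the libraries. On values as deposited 1605 were lower and 15 higher, with equal totals over peaks 37 were lower and 729 higher. Of the 226 lower calls, 226 were kept on values as deposited, 37 with equal totals and 54 under cyclic loess, and of the 153 higher calls 15, 153 and 89. Exon and intron peaks shifted together in 2 of these cases, at 20.2% and 15.1% lower on values as deposited and 9.16% and 8.15% higher with equal totals. Under cyclic loess 2.50% of exon and 1.51% of intron peaks were higher, against 1.92% and 2.07% with RLE factors.

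**Figure D5:**
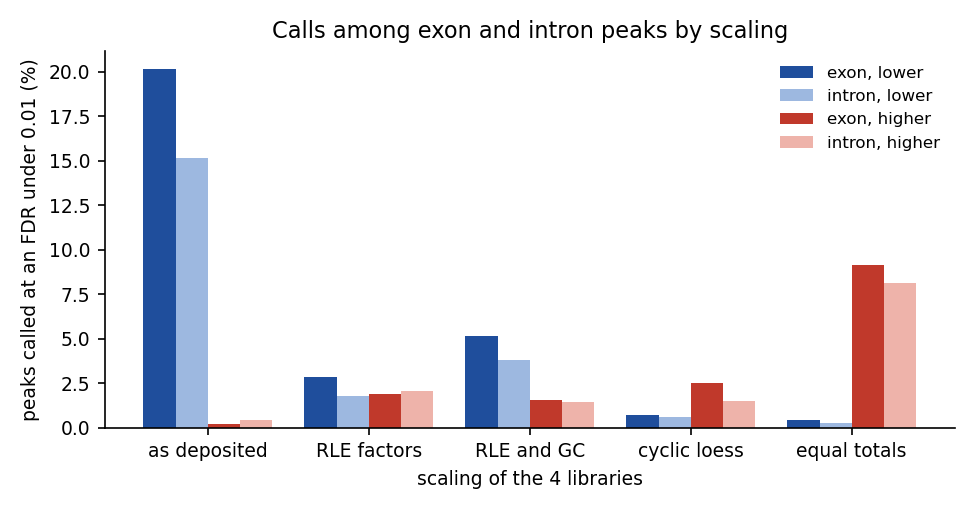
Percentage of exon and intron peaks called lower (blue) and higher (red) in normoxia under 5 scalings of the 4 libraries. Lower calls dominate on values as deposited (20.2% of exon peaks) and higher calls with equal totals over peaks (9.16%). Exon and intron peaks rise and fall together, apart from higher calls under cyclic loess (2.50% of exon and 1.51% of intron peaks).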

How the data were processed

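ATAC-seq was performed on 2 hypoxia and 2 normoxia libraries. Per the methods, the authors aligned reads to mm10 with bowtie2, removed duplicates with Picard, and used the differential mode of chromstaR to call peaks jointly for the 2 groups, and per the labels the groups differ in oxygen level. The deposited signal, which the authors call RPKM, takes no account of how wide a peak is. All values (100%) were multiples of what 1 read is worth in their library (tolerance 0.01 reads), so that reads and library totals could be recovered. It is not known whether a recovered read is a fragment or a cut position, and bins of a peak may share reads.

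The main test was that of limma 3.58.1 (R 4.3.3, trended and robust eBayes) on log2(value + 1) after RLE size factors (1.13 and 1.23 in hypoxia, 0.81 and 0.89 in normoxia), two-sided. Adjusted p-values are Benjamini-Hochberg values across the 128055 peaks, called under 0.01. The log2(value + 1) scale understates changes of low peaks. With 2 libraries a group, p-values measure the spread between these libraries only. On simulated data with 200 changed peaks among 128055, limma recovered 98% of 4-fold and 20% of 2-fold changes with 0 false calls. The simulation gave all peaks the same dispersion, changed only peaks with many reads, and put no other shift between the groups. Its count of false calls therefore does not carry over to the real libraries, whose share of reads in peaks differed between groups. edgeR 4.0.16 (quasi-likelihood test) was run on the recovered reads as an alternative. Peaks were annotated with GENCODE M21 on the same build (0 peaks lay outside the reference), and sequences were read from GRCm38.p6 of RefSeq. Intron peaks were weighted to the exon peaks over 50 quantile bins of mean value. Exon and motif classes were described by counts and medians, with no test over members.

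The set, its classes and the gene lists were chosen with earlier results of these data known. Named peaks were, in the internal and last exon classes, the 4 lower and 4 higher with the lowest p that were called, had a mean value of 10 or more and did not overlap between groups, as deposited and as scaled, the 3 strongest in each class, all of Dync1i1, and the 2 with the lowest p in each list. The 3 genes with the most exon peaks became 4 because of a tie. The correlation of deviations between same-numbered libraries was 0.011 over all peaks and 0.036 over exon peaks, and the numbers were not used as pairs. A low correlation over peaks cannot decide whether libraries of the same number share a source of cells, which is not stated. Some of the blood markers checked are not reported here.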

Additional observations from a re-analysis of the deposited data

How the results depend on the processing

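Lower and higher calls among all exon peaks were 1605 and 15 on values as deposited, 37 and 729 with equal totals, 57 and 199 with cyclic loess and 411 and 125 with GC correction. Among internal exon peaks lower calls were 987, 20, 30 and 237 in that order, and higher calls were 9 as deposited and 425 with equal totals. Among last exon peaks lower calls were 403, 10, 20 and 114, and higher calls 5 and 176. Medians of all, internal and last exon peaks were -0.38, -0.39 and -0.36 as deposited, 0.34, 0.34 and 0.34 with equal totals, and -0.015, -0.023 and -0.00012 with GC correction, where the median of all peaks was -0.098. Cyclic loess gave 0.039 for internal and 0.055 for last exon peaks. With GC correction the difference between all exon peaks and matched introns was 0.038. With no match the differences were -0.035 for all, -0.038 for internal and -0.019 for last exon peaks.

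Fitting the replicate number as a block gave 329 lower calls and 278 higher calls among all exon peaks, 162 higher among internal and 69 higher among last exon peaks. The block with GC correction gave 602, 349 and 163 lower calls in all, internal and last exon peaks, medians of -0.015, -0.023 and -0.00012, and a difference from matched introns of 0.038. Whether the numbers pair the libraries is not known, so the fits with a block stand as alternatives and not as the main result.

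Leaving out each library in turn gave 0 to 317 lower and 0 to 121 higher calls among all exon peaks, 0 to 176 and 0 to 61 among internal and 0 to 88 and 0 to 37 among last exon peaks. Every 0 came from leaving out a hypoxia library, where the lone library left is assumed to vary like the normoxia libraries. The medians ranged from 0.031 to 0.084, 0.030 to 0.080 and 0.050 to 0.095, and the differences from matched introns from -0.014 to 0.044, -0.024 to 0.027 and -0.0084 to 0.044. The difference between last and internal exon peaks ranged from 0.0072 to 0.024.

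Without trend, or without trend and robust estimation, eBayes called 0 peaks in each class and direction. Without robust estimation, or with a pseudocount of 0.1, 59 internal exon peaks were higher. edgeR with TMM factors called 246, 149 and 56 higher in all, internal and last exon peaks. At an FDR under 0.05, 484, 275 and 133 were lower and 483, 292 and 120 higher.

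Exon peaks with the centre in an exon had 34, 5 and 23 lower and 36, 12 and 18 higher calls, medians of 0.10, 0.094 and 0.12, and a difference of -0.023 between internal exons and matched introns. Those covered by exons over at least 50% of the width had 21, 0 and 19 lower and 21, 1 and 18 higher calls and medians of 0.10, 0.034 and 0.12. Their differences were -0.011 for all exon peaks and -0.11 for internal exon peaks against introns, and 0.084 between last and internal exon peaks. Over 10 kb from protein-coding starts 39 last exon peaks were lower. Over 5 kb from the start of any transcript 120, 67 and 38 were lower and 101 higher. These sets hold fewer peaks.

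Of the single peaks, the log2 fold change turned sign to 0.14 at Hk2 under cyclic loess. With equal totals it became 0.011 at Ahnak, 0.16 at Smad6, 0.19 at Plpp3, 0.17 at Lipe, 0.21 at Col5a1 and 0.061 over exon 14 of Dync1i1. Under cyclic loess it was 0.26 at Ahnak, 0.46 at Smad6, 0.49 at Plpp3, 0.15 at Lipe and 0.49 at Col5a1. As deposited it was -0.014 at Acaca and -0.44 over exon 11 of Dync1i1, which also turned to -0.050 with GC correction, with and without the block, and lay between -0.14 and 0.18 when a library was left out. Other tests of single peaks kept direction and side of the threshold in 474 cases, lost the call in 112 and gained one in 27. The cause was not tested. Leaving out peaks wider than 10 kb, an alternative chosen after seeing the data, gave 212 lower and 142 higher. The median exon peak held 42 to 63 reads in a library, and 0 of 1589 exon peaks with a value of 5 to 10 were called lower.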
